A study of Mus musculus with 14 samples.

Results

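Integrins are the adhesion receptors that hold lymphocytes in tissue. Each receptor pairs an alpha subunit, which largely sets the ligand, with a beta subunit, whose tail binds talin and kindlin inside the cell. Beta subunits are shared: the beta 1 chain pairs with alpha 1 and alpha 2, which bind collagens, with alpha 4, which binds VCAM-1 and fibronectin, and with alpha v. The beta 7 chain pairs with alpha 4, in the receptor for the gut addressin MAdCAM-1, and with alpha E (CD103), which binds E-cadherin on epithelium. Beta 2 with alpha L makes LFA-1, the receptor for the ICAMs, and beta 3 with alpha v makes a receptor for vitronectin and other RGD ligands. The 10 genes described here are Itga1, Itga2, Itga4, Itgae, Itgal, Itgav, Itgb1, Itgb2, Itgb3 and Itgb7. They were taken by name, and each was found in both deposited tables of counts and TPM, which list 53278 genes.

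The libraries came from group 2 innate lymphoid cells (ILC2s), the innate counterpart of Th2 cells, sorted from whole mouse lung as live, lineage-, CD90.2+ and CD3- cells, with about 15000 cells plated per sample. The labels and the series' design text give 1 mouse per library, while some of the study's figure legends describe sorting samples pooled from 2 animals. In the stimulation experiment, 8 female B6 mice gave 4 unstimulated libraries and 4 libraries of cells given IL-33 (20 ng/mL) during 24 h. The study's methods and the series' design text have the unstimulated cells cultured without IL-33, though the study also calls them ex vivo cells, and if they were not cultured then IL-33 and culture cannot be told apart. In the Blimp-1 experiment, 3 female ControlIL7RaCre (Control) and 3 female Blimp-1IL7RaCre (Blimp-1-deficient) mice of matched age gave ILC2s cultured for 72 h with IL-33 and IL-25 at 20 ng/mL each, and the study's methods add IL-2 to that culture. Both genotypes carry the Cre driven by Il7r, which acts in all innate lymphoid cells and in T, B and NK cells, so the deletion was not limited to ILC2s in the animal. Blimp-1, the product of Prdm1, is a transcriptional repressor. IL-33 and IL-25 are tissue alarmins that activate ILC2s. The study's methods give only a lower limit for the age of the mice. Their general culture section has IL-2 at 20 ng/mL in the medium, but their RNA-seq section does not name IL-2 for the 24 h cultures.

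The 8 libraries of the stimulation held 10470125 to 32849428 counts each, and the 6 libraries comparing genotypes 13570188 to 76448945. Both of the shallowest libraries, IL-33 replicate 3 and Control replicate 2, stood apart, and every comparison is given with and without them. In Control replicate 2, 7 loci of ribosomal or similar RNA held 76.8% of the counts and 93.9% of the TPM, its TPM of all other genes are lowered accordingly, and its summed stromal marker level was 4048 CPM against 103 to 555 CPM in the other 5 libraries of that experiment. CPM here are counts scaled to 1e+06 per library with TMM factors. In IL-33 replicate 3 the same 7 loci held 4.12% of the counts and 7.19% of the TPM. They held 0.26% to 0.57% and 0.59% to 2.19% in the other libraries of the stimulation. IL-33 replicate 3 carried Csf1r, the macrophage growth factor receptor, at 27.2 CPM against 0.49 to 2.17 CPM in the other IL-33 libraries. The 8 macrophage and monocyte markers, Csf1r among them, summed to 129 CPM in that library. They summed to 42.8 to 117 CPM in the other IL-33 libraries and to 94.1 to 221 CPM in unstimulated ones. The 12 ILC2 markers summed to 8769 to 9580 CPM in unstimulated and 6347 to 8584 CPM in IL-33 libraries, and to 6129 to 7389 CPM in the Controls and 5587 to 5846 CPM in the Blimp-1-deficient libraries. Prdm1 was at 74.0 to 92.8 CPM in the Controls and at 11.5 to 14.6 CPM in the Blimp-1-deficient libraries, and fell by 2.68 on the log2 scale (edgeR, adjusted p = 0.00441).

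Per unit of gene length, the beta 7 chain was the leading integrin transcript. The TPM of Itgb7 ranked first among the 10 genes in 13 of 14 libraries and second, after Itgb1, in IL-33 replicate 3. In unstimulated ILC2s Itgb7 stood at 1146 to 1336 TPM (1264 ± 83.2, SD, n = 4), and Itgb2 followed at 516 to 568 TPM (543 ± 26.2, n = 4). Itgb3 at 318 to 370 TPM, Itgal at 312 to 341 TPM and Itgb1 at 253 to 317 TPM came next, and the ranges of neighbours in that order overlapped. The alpha chains other than Itgal were lower. Itgav was at 39.0 to 43.4 TPM, Itga4 at 19.7 to 25.2 TPM, Itga2 at 8.87 to 13.9 TPM, Itgae at 1.82 to 3.79 TPM and Itga1 at 0.67 to 0.87 TPM, with no overlap between neighbours. Itgav was sixth, Itgae ninth and Itga1 last in every one of the 14 libraries. The makeup of the 10 genes' summed TPM, which does not depend on the rest of a library, moved with IL-33: Itgb7 made up 42.9% to 45.7% of it in unstimulated ILC2s and 22.2% to 27.7% in stimulated ones. Itgb1 made up 8.87% to 10.8% and 15.9% to 23.9% of the same sum, and Itgal 10.7% to 11.9% and 16.7% to 18.1%. These shares are given as a description, with no test.

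**Figure D1:**
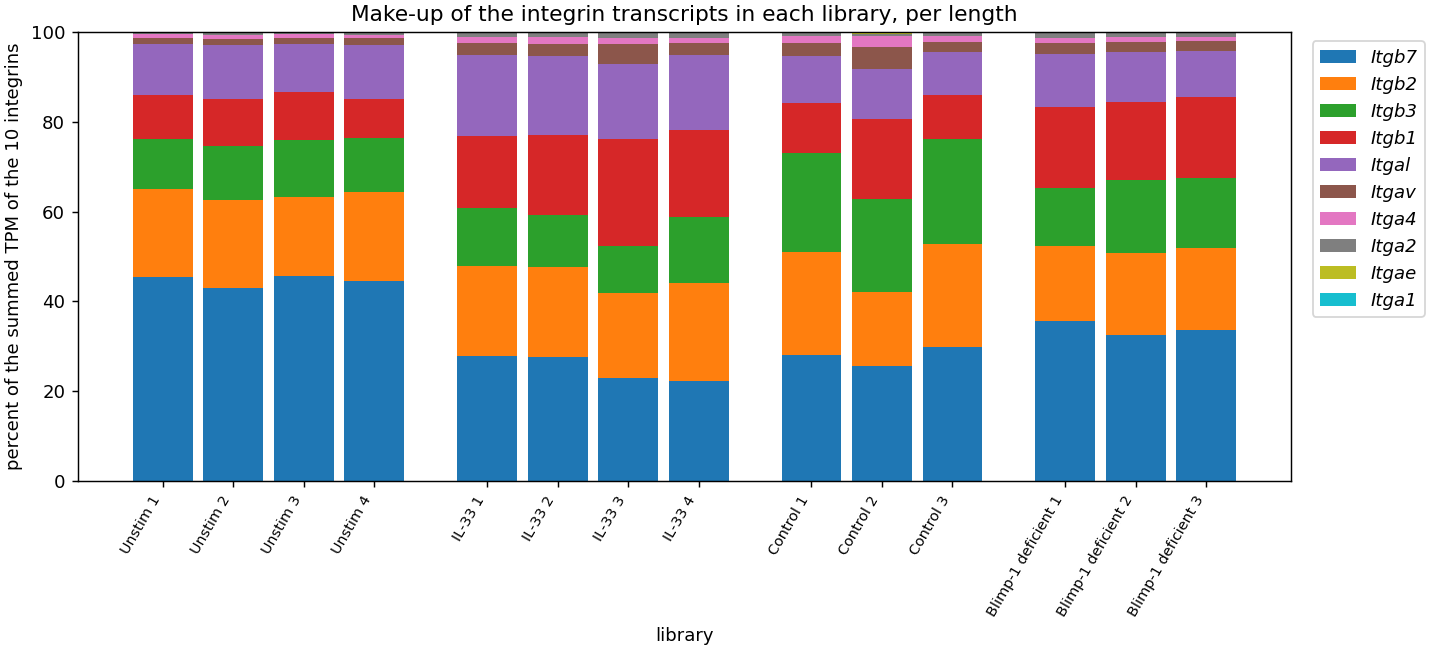
Each bar is 1 library and shows the percent of the summed TPM of the 10 integrin genes that each gene holds, with colours for genes. Itgb7 holds 42.9% to 45.7% in the unstimulated libraries and 22.2% to 27.7% in the IL-33 libraries, while Itga1, Itgae and Itga2 are thin bands at the top of every bar.

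The genes lie on 7 chromosomes of GRCm38, all of them protein coding in the GENCODE annotation. Itga1 (ENSMUSG00000042284.10, chr13:114953096-115101964, minus strand) and Itga2 (ENSMUSG00000015533.9, chr13:114833081-114932100, minus strand) are neighbours, 20995 bases apart. Itga4 (ENSMUSG00000027009.18) is at chr2:79255426-79333123 and Itgav (ENSMUSG00000027087.11) at chr2:83724397-83806916, both on the plus strand. Itgae (ENSMUSG00000005947.11) is at chr11:73090583-73147446 and Itgb3 (ENSMUSG00000020689.4) at chr11:104608000-104670476, also on the plus strand. Itgal (ENSMUSG00000030830.18) is at chr7:127296260-127335138, Itgb1 (ENSMUSG00000025809.15) at chr8:128685654-128733200 and Itgb2 (ENSMUSG00000000290.13) at chr10:77530252-77565708, on the plus strand, and Itgb7 (ENSMUSG00000001281.10) at chr15:102215995-102231944 on the minus strand. Reads could be shared at a few exons, since the strand used for counting is not given in the sources used here. Of the exon bases, 8.04% in Itga4 are overlapped by Cerkl and 5.90% in Itgav by Gm13684, both antisense, and 3.68% in Itga1 by Gm49395 in sense. No other gene overlaps exons of the other 7 genes, and 0.21% of the 75-base stretches of Itgb2 also occur in Gm14699.

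Promoter sequences are shown for the 3 genes on which the comparisons turn: Itgb7, which fell most after IL-33, and Itgb1 and Itga4, which differed between genotypes once Control replicate 2 was left out. Each run is the 250 bases before the RefSeq start site, 5′ to 3′ on the gene's own strand, from the RefSeq table for GRCm38.p6, which held 6 of the 10 genes. Capitals mark matches, on either strand, to the letters searched: GAAAGT (a core of Blimp-1 sites), TGTGGT (RUNX), GGGCGG (GC box) and GGAAGT (ETS).
Itgb7, chr15:102231936-102232185, minus strand: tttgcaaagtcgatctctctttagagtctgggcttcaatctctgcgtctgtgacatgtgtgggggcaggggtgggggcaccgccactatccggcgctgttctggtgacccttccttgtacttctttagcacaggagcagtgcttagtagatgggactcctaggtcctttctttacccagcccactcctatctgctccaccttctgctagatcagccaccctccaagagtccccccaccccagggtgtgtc
Itgb1, chr8:128685404-128685653, plus strand: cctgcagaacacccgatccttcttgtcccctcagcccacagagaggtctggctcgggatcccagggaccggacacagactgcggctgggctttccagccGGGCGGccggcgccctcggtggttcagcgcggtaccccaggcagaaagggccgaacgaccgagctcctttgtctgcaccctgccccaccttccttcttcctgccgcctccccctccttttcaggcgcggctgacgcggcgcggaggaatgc
Itga4, chr2:79255176-79255425, plus strand: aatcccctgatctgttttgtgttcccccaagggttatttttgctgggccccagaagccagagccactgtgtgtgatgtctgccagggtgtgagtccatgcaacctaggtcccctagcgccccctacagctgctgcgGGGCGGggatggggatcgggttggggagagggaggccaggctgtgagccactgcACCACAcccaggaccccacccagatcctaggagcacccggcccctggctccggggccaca

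The RefSeq start of Itgb7 lies 9 bases inside the GENCODE gene end, and those of Itgb1 and Itga4 coincide with it. None of the 4 letter strings occurs in the Itgb7 window. With positions counted from the start, the Itgb1 window holds 1 GC box at -151, and the Itga4 window holds 1 GC box at -114 and 1 RUNX string at -60, the latter read on the opposite strand. Of the other 3 windows found, that of Itga1 holds GAAAGT at -109 and an ETS string at -192, that of Itgav holds 2 ETS strings and that of Itga2 none of the 4. Over the 32851 windows of the same length in the table, GAAAGT occurs in 12.3%, TGTGGT in 14.05%, GGGCGG in 32.7% and GGAAGT in 19.7%. A match is a description of letters only.

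The first comparison asks how integrin transcripts differ between unstimulated and IL-33-stimulated lung ILC2s. Itgb7, Itgb2 and Itgb3 fell, Itgav rose by a small margin, and the other 6 genes did not pass the test (edgeR quasi-likelihood test, Benjamini-Hochberg adjusted over all genes, adjusted p below 0.05). That is 1 of 10 genes higher and 3 of 10 lower, beside 16.2% of 15466 tested genes higher and 16.1% lower. The median log2 fold change was -0.46 over the 10 genes and 0.06 over all genes tested. Without IL-33 replicate 3, 2 of the 10 were higher (Itga2 and Itgav) and 5 lower (Itga1, Itgae, Itgb2, Itgb3 and Itgb7), beside 27.5% higher and 29.7% lower of all genes, with medians of -0.31 and -0.05. With DESeq2, 2 of the 10 were higher (Itga2 and Itgav) and 4 lower (Itgae, Itgb2, Itgb3 and Itgb7) over all libraries, beside 19.5% and 18.8% of genes with an adjusted p, and 2 and 5 without IL-33 replicate 3, beside 23.3% and 21.8%. The summed CPM of the 10 genes was 3075 to 3429 in the unstimulated and 1603 to 2382 in the stimulated libraries. In bulk samples such as these, fewer cells with a transcript and less of it per cell cannot be told apart.

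**Figure D2:**
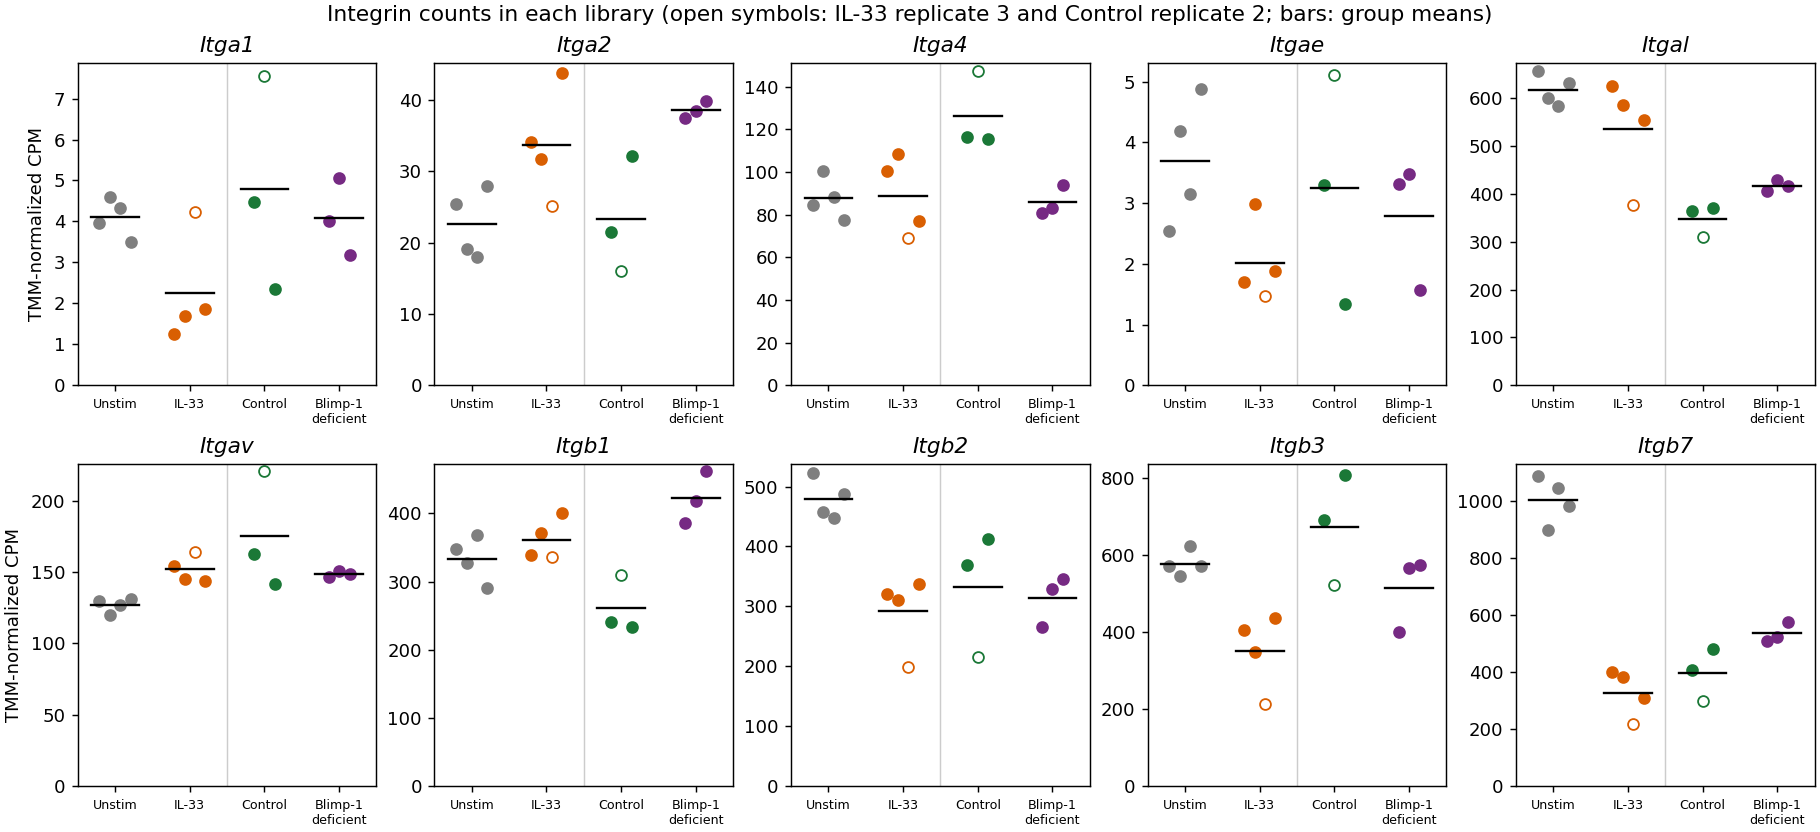
TMM-normalized CPM of each integrin gene in every library, with a panel per gene and a y axis from 0, 4 groups on the x axis, a bar at each group mean and open symbols for IL-33 replicate 3 and Control replicate 2. The 4 unstimulated libraries lie above the 4 IL-33 libraries for Itgb7, Itgb2 and Itgb3, and the 3 Blimp-1-deficient libraries lie above the 3 Controls for Itgb1 (386 to 462 against 233 to 309.6 CPM); CPM of the stimulation and the Blimp-1 experiment were scaled separately.

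Itgb7 showed the largest fall of the 10. Its CPM were 1088, 898, 1044 and 981 in unstimulated replicates 1 to 4 and 399, 383, 217 and 308 in IL-33 replicates 1 to 4. The lowest unstimulated library was thus above every stimulated one, and replicate 3 was the lowest of the stimulated group. The log2 fold change was -1.62 (SE 0.19, adjusted p = 4.7e-04), a level 3.07-fold lower, and without IL-33 replicate 3 it was -1.46 (SE 0.10, adjusted p = 1.4e-06). Over the 17 alternatives the log2 fold change lay between -1.98 and -1.46 and passed the test in all of them.

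The alpha partners of beta 7 did not follow it as a pair. Itga4 was at 84.7, 100.5, 88.3 and 77.4 CPM in unstimulated and at 100.5, 109, 69.1 and 77.0 CPM in IL-33 libraries. These groups overlapped, with a log2 fold change of 0.02 (95% interval -0.34 to 0.38, adjusted p = 0.94) whose sign turned under several alternatives. Itgae, which encodes CD103, was low in all libraries, at 2.53, 4.18, 3.14 and 4.88 CPM unstimulated and 1.71, 2.98, 1.48 and 1.88 CPM after IL-33. Its log2 fold change was -0.87 (SE 0.32, adjusted p = 0.072), and -0.75 (SE 0.28, adjusted p = 0.043) without IL-33 replicate 3, where its groups still overlapped. The latter call was lost when unstimulated replicate 2 or 4 or IL-33 replicate 1 or 4 was also left out (adjusted p = 0.092 to 0.15). Of the 17 alternatives to the fit over all libraries, 7 passed the test for Itgae (adjusted p = 0.020 to 0.049). Counts behind these Itgae values ran from 15 in IL-33 replicate 3 to 155 in unstimulated replicate 4.

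Both chains of LFA-1 were abundant, and the beta chain fell. Itgb2 was at 522, 458, 448 and 488 CPM in unstimulated and at 321, 311, 198 and 337 CPM in IL-33 libraries, with no overlap. Its log2 fold change was -0.71 (SE 0.16, adjusted p = 0.011), and -0.57 (SE 0.06, adjusted p = 4.4e-05) without IL-33 replicate 3. Itgal was at 655, 599, 583 and 631 CPM and at 624, 585, 377 and 554 CPM in the same order. IL-33 replicates 1 and 2 lay within the unstimulated range and replicates 3 and 4 below it. The Itgal log2 fold change was -0.21 (95% interval -0.55 to 0.14, adjusted p = 0.32) over all libraries and -0.07 (-0.21 to 0.07, adjusted p = 0.36) without replicate 3. On log2(TPM + 1) without replicate 3, Itgal was lower, at -0.38 (limma, adjusted p = 0.0059). The median gene was at -0.28 on that scale.

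Of the vitronectin receptor, the beta 3 chain fell and the alpha v chain did not. Itgb3 was at 569.9, 546, 623 and 571 CPM in unstimulated and at 406, 347, 212 and 435 CPM in stimulated libraries. Every unstimulated library was above every stimulated one, and replicate 3 was again the lowest. The log2 fold change was -0.72 (SE 0.20, adjusted p = 0.028), and -0.54 (SE 0.08, adjusted p = 2.7e-04) without IL-33 replicate 3. Its call was lost with no filter (adjusted p = 0.060), with a replicate block (0.053) and without unstimulated replicate 3 (0.077) or IL-33 replicate 2 (0.072). Beta 3 is also a platelet integrin. The 7 platelet markers summed to 0.985 to 2.08 CPM in these 8 libraries. Gp6 was at 0 in all of them, and Pf4, Ppbp and Gp9 were at 0.313 CPM or less. Gp1ba, the 1 platelet marker tested, had a log2 fold change of -1.17 (edgeR, adjusted p = 0.063). Without IL-33 replicate 3 its log2 fold change was -0.93 (adjusted p = 0.018). The part of platelets in the Itgb3 level was not tested. Itgav was at 129.8, 119.7, 127 and 131 CPM and at 155, 145, 164 and 144 CPM, again without overlap. Its log2 fold change was 0.26 (SE 0.06, adjusted p = 0.016) on TMM-scaled counts, but it was -0.07 on log2(TPM + 1) (limma, 1 as pseudocount), and in deposited TPM its groups overlapped, at 39.0 to 43.4 TPM and 35.7 to 41.7 TPM. The median gene moved by -0.25 on that TPM scale. The Itgav call held in 9 of 17 alternatives and was also lost with library size alone (adjusted p = 0.30), with no filter (0.087), with a replicate block (0.069) and without unstimulated replicate 2, 3 or 4 (0.051 to 0.073).

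The beta 1 chain and its collagen-binding partners gave smaller or less certain differences. Itgb1 was at 348, 327, 368 and 291 CPM in unstimulated and at 339, 371, 336 and 400.4 CPM in stimulated libraries, which overlapped, with a log2 fold change of 0.12 (95% interval -0.10 to 0.33, adjusted p = 0.36). Itga2 was at 25.4, 19.1, 18.0 and 28.0 CPM and at 34.1, 31.7, 25.1 and 43.8 CPM. Only IL-33 replicate 3 fell within the unstimulated range. For Itga2 the log2 fold change was 0.58 (SE 0.21, adjusted p = 0.067) over all libraries and 0.69 (SE 0.16, adjusted p = 0.0051) without that library, a level 1.61-fold higher. The test was passed in 6 of 17 alternatives to the former, among them a replicate block (0.57, adjusted p = 0.022). The latter call was lost on log2(TPM + 1), at 0.37 (limma, adjusted p = 0.093), a scale with the median gene at -0.28. Itga1 was at 3.96, 4.61, 4.33 and 3.498 CPM and at 1.25, 1.68, 4.24 and 1.88 CPM. Replicate 3 lay among the unstimulated values here and the other 3 stimulated libraries below them all. For Itga1 the log2 fold change was -0.87 (SE 0.39, adjusted p = 0.12), and -1.35 (SE 0.20, adjusted p = 2.8e-04) without IL-33 replicate 3. Although Itga1 and Itga2 are adjacent and both encode collagen receptors, the TPM of Itga2 exceeded that of Itga1 by 10.8 to 20.8 times in unstimulated ILC2s and by 49.1 to 71.2 times in the 3 deeper IL-33 libraries, with 15.5 times in replicate 3.

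Ratios of chains within a library, a scale that needs no library normalization, shifted for the beta 7, beta 2 and beta 3 chains but overlapped for beta 1. The TPM of Itgb7 was 40.4 to 59.97 times the sum of Itga4 and Itgae in unstimulated libraries and 15.0 to 19.2 times that sum after IL-33. Itgb7 stood at 4.09 to 5.01 times Itgb1, the other beta chain that pairs with alpha 4, before and at 0.96 to 1.75 times after stimulation. Itgb2 to Itgal went from 1.65 to 1.71 down to 1.11 to 1.31, and Itgb3 to Itgav from 7.92 to 8.93 down to 2.35 to 5.52. None of these 4 ratios overlapped between the groups, with IL-33 replicate 3 or without it. Itgb1 stood at 3.26 to 4.32 times the sum of its alpha partners Itga1, Itga2, Itga4 and Itgav in unstimulated libraries and at 3.15 to 3.91 times in stimulated ones. The ratios were not tested. Transcript ratios do not give amounts of paired receptor at the surface.

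**Figure D3:**
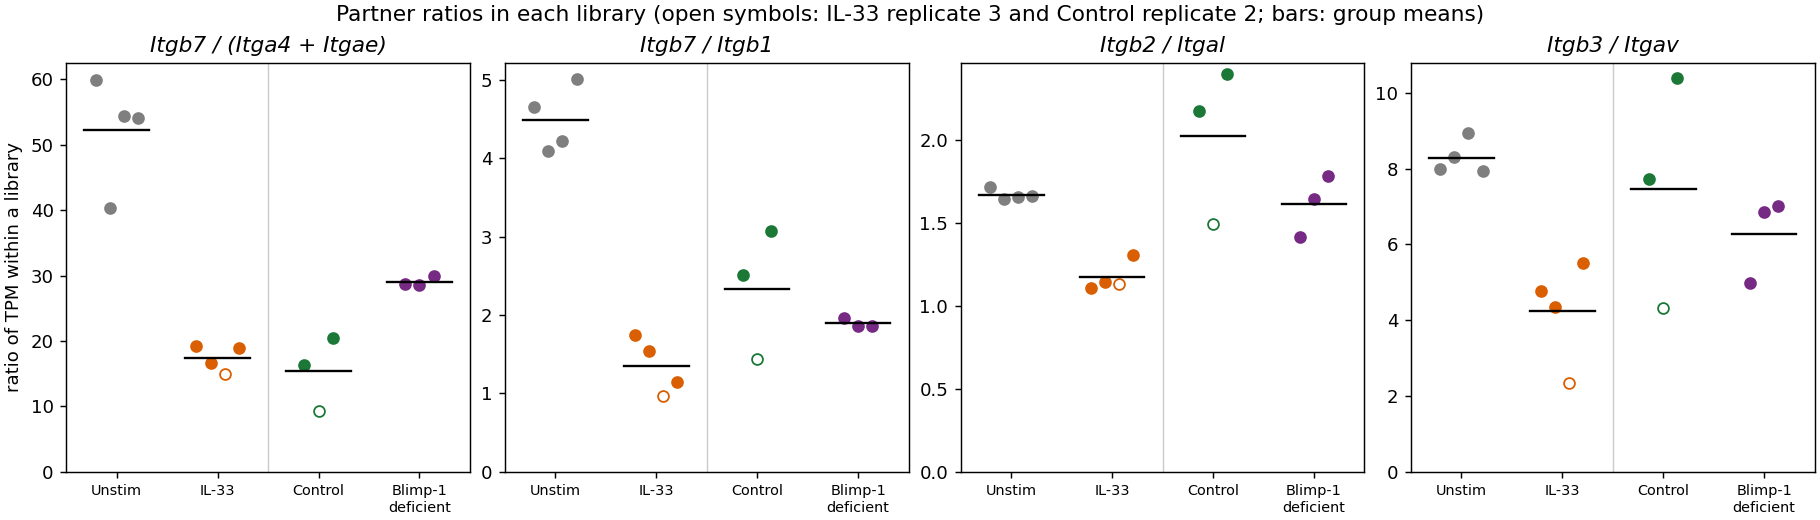
Ratios of deposited TPM within each library (y axes from 0) for the chains named above each panel, by group on the x axis, with bars at group means and open symbols for IL-33 replicate 3 and Control replicate 2. The unstimulated and IL-33 groups do not overlap in any of the 4 panels, and the ratio of Itgb7 to its alpha partners is 28.5 to 29.9 in the Blimp-1-deficient libraries and 9.34 to 20.5 in the Controls.

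Markers of other cell types moved between the same groups. The 8 T cell markers summed to 51.6 to 65.3 CPM in unstimulated and 14.5 to 28.0 CPM in stimulated libraries, most of it Cd3g, at 32.4 to 39.0 and 8.87 to 15.5 CPM. The 6 stromal markers summed to 325 to 659 CPM and 140.1 to 383 CPM. The 7 mast cell and basophil markers summed to 7.12 to 14.7 CPM and 0.0324 to 0.985 CPM, with Cpa3 as the main one and Cma1, Ms4a2 and Tpsb2 at 0 in all unstimulated libraries. Epithelial markers summed to 52.7 to 82.6 CPM and 2.55 to 5.52 CPM, and in the unstimulated libraries nearly all of it was Epcam, with 18.7 CPM of Scgb1a1 in replicate 2. The summed dendritic cell and B cell markers were higher in the stimulated libraries, at 26.1 to 29.9 and 36.2 to 50.2 CPM and at 9.85 to 12.1 and 14.6 to 17.8 CPM. Each rested mainly on 1 gene, Xcr1 (24.4 to 27.9 and 33.3 to 39.0 CPM) and Cd79b (9.53 to 11.9 and 14.6 to 17.7 CPM). Endothelial markers summed to 87.0 to 149.9 and 146 to 163 CPM, of which Pecam1 rose (log2 fold change 0.99) and Cdh5 fell (-0.80), and without IL-33 replicate 3, 1 of the 5 was higher and 4 lower. Of the 12 ILC2 markers 8 fell and 2 rose, beside 16.1% lower and 16.2% higher of all genes, with Il17rb, a chain of the IL-25 receptor, at a log2 fold change of -3.07 and Thy1, which encodes the CD90 used in the sort, at -2.52. The part of these lists in the integrin differences was not tested.

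Of 17 further integrin genes, 13 were tested, and 3 were higher after IL-33 and 3 lower, with a median log2 fold change of -0.07, beside 16.2% higher and 16.1% lower of all genes tested. Itga3, a laminin-binding chain, rose by 0.97 (SE 0.12, adjusted p = 5.3e-04), from 29.7 to 37.4 CPM up to 55.9 to 71.3 CPM. Itga6, which also binds laminin, rose by 0.60 (SE 0.14, adjusted p = 0.012), a call lost on log2(TPM + 1), at 0.24 (adjusted p = 0.35), and on log2(TPM + 0.1), at 0.24 (0.36). Itgb8, whose product activates latent TGF-beta, gave 3.31 (adjusted p = 0.020), a log2 fold change that rested largely on 26.6 CPM in IL-33 replicate 3. Without that library it was 1.88 (SE 0.32, adjusted p = 6.5e-04), from 0.60 to 1.56 CPM up to 3.22 to 3.47 CPM. Itga9 fell by 1.25 (SE 0.20, adjusted p = 0.0023), from 4.92 to 7.10 CPM down to 2.36 to 3.09 CPM, and Itgb2l, at 1.51 CPM or less, fell by 1.82 (adjusted p = 0.028). Itga8 also fell, from 1.53 to 2.00 CPM to 3 counts or fewer in each stimulated library, which leaves its fold open. Without IL-33 replicate 3, Itgb4 also fell, and 3 were higher and 4 lower, beside 27.5% and 29.7% of all genes.

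Of 36 tested genes for proteins that switch integrins on and tie them to actin, 3 rose and 10 fell after IL-33, with a median log2 fold change of -0.33, beside 16.2% higher and 16.1% lower of all genes tested. Skap1, a T cell adaptor for integrin activation, fell by 1.06 (SE 0.09, adjusted p = 1.1e-04), from 345 to 389.7 CPM down to 151 to 195 CPM. Parva, which links integrin-linked kinase to actin, fell by 1.008 (SE 0.29, adjusted p = 0.032). Apbb1ip, which encodes the RAP1 effector RIAM, fell by 0.78 (SE 0.13, adjusted p = 0.0029). The 3 that rose were Cytip, which restrains cytohesin-driven adhesion, Lpxn, the adaptor leupaxin, and Rapgef1, an exchange factor for RAP1, with log2 fold changes of 0.66, 0.54 and 0.31. Without IL-33 replicate 3, 6 were higher and 21 lower, beside 27.5% and 29.7% of all genes. Rasgrp2, an activator of RAP1, then had the largest fall, 2.98 (SE 0.21, adjusted p = 1.7e-06), against -1.01 (adjusted p = 0.41) over all libraries.

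Of 21 tested integrin ligands, 4 rose and 8 fell after IL-33, with a median log2 fold change of -0.73, beside the same 16.2% and 16.1% of all genes. Icam1, the ligand of LFA-1, rose by 1.182 (SE 0.16, adjusted p = 8.4e-04), from 29.1 to 35.9 CPM up to 52.0 to 84.1 CPM. Tgfb1, which is released from its latent form by alpha v integrins and whose signal induces CD103 in T cells, rose by 0.88 (adjusted p = 0.0054), and Icam2 by 0.71 (adjusted p = 0.018). The largest falls were in the collagens Col4a2, Col1a2 and Col4a1, by 1.67, 1.55 and 1.48. Col1a2 is itself among the 6 stromal markers, of which 3 fell, while Dcn gave a log2 fold change of 0.16. Among 19 tested genes of adhesion, tissue retention and TGF-beta signalling, 2 rose and 8 fell. Cd69, which opposes tissue exit, rose by 0.85 (SE 0.09, adjusted p = 3.4e-04), and Cd44, the hyaluronan receptor, by 0.37 (adjusted p = 0.025). Ccr9, the gut-homing chemokine receptor often carried together with alpha 4 beta 7, fell by 6.31 (SE 0.44, adjusted p = 4.4e-05), from 40.2 to 52.8 CPM to 0.10 to 0.81 CPM. Tgfbr2, a TGF-beta receptor chain, fell by 1.26 (SE 0.15, adjusted p = 5.6e-04), from 479 to 534 CPM to 144 to 233 CPM, and Cd151, a tetraspanin partner of laminin-binding integrins, by 1.09 (adjusted p = 4.9e-04). Without IL-33 replicate 3, 5 ligands were higher and 14 lower, and 4 genes of the other group were higher and 9 lower, beside 27.5% and 29.7% of all genes.

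The second comparison asks how the same transcripts differ between Blimp-1-deficient and Control ILC2s after 72 h of activation. Over all 6 libraries none of the 10 integrins passed the test with edgeR, in either direction, beside 0.45% of 17335 tested genes higher and 0.306% lower. At an unadjusted p below 0.05 there were 3 of the 10 (Itga2, Itga4 and Itgb1), beside 11.9% of all genes tested, and DESeq2 called 1 higher and 1 lower (Itgb1 and Itga4), beside 3.24% higher and 3.2% lower of 17205 genes with an adjusted p. The median log2 fold change was -0.12 over the 10 and -0.02 over all genes. Without Control replicate 2, Itgb1 was higher and Itga4 lower, that is 1 of 10 in each direction, beside 8.25% of 17968 tested genes higher and 5.72% lower, with medians of 0.23 and 0.01. That comparison sets 3 libraries against 2. Control replicate 2 gave between 21 (Itgae) and 2146 (Itgb3) counts for the 10 genes, so its values are the least precise of the experiment.

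**Figure D4:**
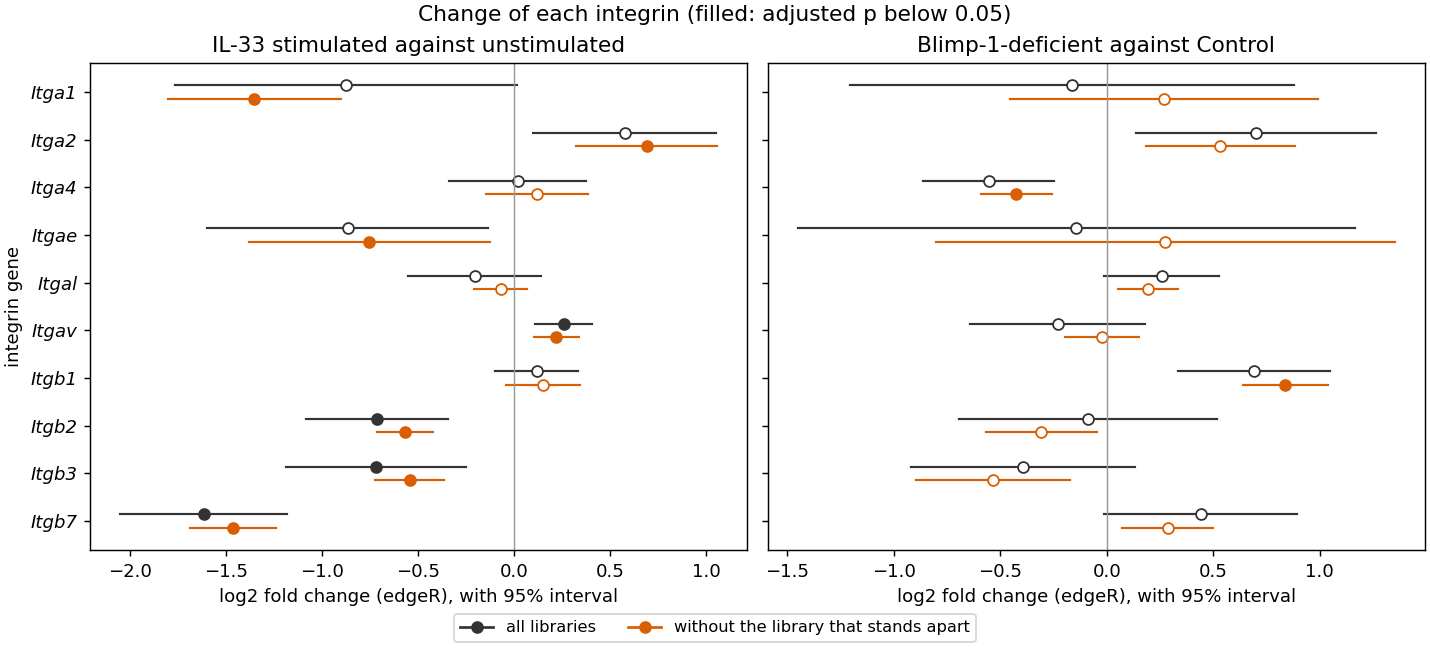
Log2 fold change of each integrin gene (x axis) from edgeR with its 95% interval, for IL-33 stimulated against unstimulated ILC2s and for Blimp-1-deficient against Control ILC2s, over all libraries and without IL-33 replicate 3 or Control replicate 2; filled symbols have an adjusted p below 0.05. Itgb7 is the lowest in the stimulation panel at -1.62 and -1.46, and in the Blimp-1 panel Itgb1 (0.84) and Itga4 (-0.43) are filled without Control replicate 2 only.

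Itgb1 gave the clearest separation of the genotypes. It was at 241, 309.6 and 233 CPM in Control replicates 1 to 3 and at 386, 418 and 462 CPM in Blimp-1-deficient replicates 1 to 3. All 3 deficient libraries were above all 3 Controls, and Control replicate 2 was the highest Control. The log2 fold change was 0.69 (SE 0.15, adjusted p = 0.12) over all libraries, and 0.84 (SE 0.08, adjusted p = 0.0021) without Control replicate 2, a level 1.79-fold higher. With DESeq2 the adjusted p over all libraries was 2.0e-05. Stromal cells carry beta 1 as well, and the summed stromal markers were 103, 4048 and 245 CPM in Controls 1 to 3 and 284 to 555 CPM in the deficient libraries. The summed endothelial markers, given with the ligands, were also higher in the deficient libraries. The part of either cell type in the Itgb1 difference was not tested. The TPM of Itgb1 was 2.19 to 2.25 times the sum of Itga1, Itga2, Itga4 and Itgav in the 3 Controls and 3.81 to 4.30 times in the 3 deficient libraries, a ratio in which Control replicate 2 did not stand apart.

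The alpha chains that pair with beta 1 differed less evenly. Itga4 was at 116, 147 and 116 CPM in the Controls and at 80.7, 83.1 and 93.7 CPM in the deficient libraries, with no overlap. Its log2 fold change was -0.55 (SE 0.13, adjusted p = 0.14) over all libraries, and -0.43 (SE 0.07, adjusted p = 0.011) without Control replicate 2. The latter call was lost on log2(TPM + 1) (-0.35, adjusted p = 0.064) and when Control replicate 1 was also left out (-0.42, adjusted p = 0.064). The sign over all libraries turned to 0.01 with library size alone and to 0.96 on log2(TPM + 1), scales on which the median gene was at 0.45 and 1.28. Itga2 was at 21.5, 16.1 and 32.2 CPM and at 37.5, 38.4 and 39.8 CPM, again with all deficient libraries above all Controls, which were themselves widely spread. Its log2 fold change was 0.70 (SE 0.23, adjusted p = 0.31), and 0.53 (SE 0.15, adjusted p = 0.056) without Control replicate 2. Itga1 was at 4.47, 7.55 and 2.35 CPM and at 4.01, 5.06 and 3.18 CPM, overlapping, and its log2 fold change of -0.16 (95% interval -1.20 to 0.88) became 0.27 (-0.45 to 0.99) without that library.

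Itgb7 was at 406, 298 and 481 CPM in the Controls and at 510.5, 524 and 577 CPM in the deficient libraries. The groups did not overlap, but the gap between Control replicate 3 and deficient replicate 1 was small beside the spread of the Controls. The log2 fold change was 0.44 (SE 0.19, adjusted p = 0.43), and 0.29 (SE 0.09, adjusted p = 0.081) without Control replicate 2. Relative to its alpha partners Itgb7 stood at 16.4, 9.34 and 20.5 times the summed TPM of Itga4 and Itgae in the Controls and at 28.7, 28.5 and 29.9 times in the deficient libraries, without overlap. Relative to Itgb1 it stood at 2.51, 1.43 and 3.07 times and at 1.97, 1.87 and 1.86 times, which overlapped. Itgae was at 3.30, 5.11 and 1.33 CPM and at 3.31, 3.48 and 1.57 CPM, with a log2 fold change of -0.14 (95% interval -1.45 to 1.17), too wide to place its direction.

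The remaining chains did not pass the edgeR test with or without Control replicate 2. Without that library DESeq2 called Itgal (adjusted p = 0.026), Itga2 (0.0052) and Itgb7 (0.027) higher and Itgb2 (0.039) and Itgb3 (0.0029) lower, beside Itgb1 and Itga4, where it called 10.6% higher and 8.96% lower of 18219 genes with an adjusted p. Itgal was at 364, 311 and 370 CPM in the Controls and at 405, 429.5 and 416 CPM in the deficient libraries. Those groups did not overlap, and the log2 fold change was 0.26 (SE 0.11, adjusted p = 0.44), or 0.19 (SE 0.06, adjusted p = 0.077) without Control replicate 2. Itgb2 was at 368, 216 and 412 CPM and at 266, 328 and 345 CPM, with log2 fold changes of -0.09 (adjusted p = 0.94) and -0.31 (adjusted p = 0.11). Its Controls spanned the deficient range only because of Control replicate 2. Itgb3 was at 689, 523 and 807 CPM and at 399.7, 567 and 573 CPM, with log2 fold changes of -0.39 (SE 0.22, adjusted p = 0.57) and -0.54 (SE 0.15, adjusted p = 0.062). Here too only Control replicate 2 overlapped the deficient libraries. Itgav was at 162, 221 and 141 CPM and at 146, 150.4 and 149 CPM, with log2 fold changes of -0.23 (95% interval -0.64 to 0.18) and -0.02 (-0.20 to 0.15). Platelet markers summed to 0.77 to 4.98 CPM in this experiment, beside 399.7 to 807 CPM of Itgb3. The part of platelets in the Itgb3 level was not tested here either.

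Outside the 10, Itga6 was the integrin that passed the edgeR test between genotypes over all libraries. Of 16 tested further integrins, none was higher and 1 was lower, with a median log2 fold change of 0.13, beside 0.45% higher and 0.306% lower of all genes. With DESeq2, 1 of the further integrins was higher and 2 lower, beside 3.24% and 3.2% of genes with an adjusted p. Itga6, the laminin-binding alpha 6 chain that pairs with beta 1 and beta 4, was at 196, 191 and 235 CPM in the Controls and at 51.4, 74.5 and 49.7 CPM in the deficient libraries. The lowest Control was above the highest deficient library by a wide margin, and the fall was 1.82 (SE 0.19, adjusted p = 0.024), or 1.87 (SE 0.17, adjusted p = 0.0017) without Control replicate 2. Its call over all libraries was lost when any other single library was left out (adjusted p = 0.054 to 0.19), with log2 fold changes that stayed at -2.03 to -1.72, with a replicate block (-1.84, adjusted p = 0.11) and with library size alone (-1.37, adjusted p = 0.87). On log2(TPM + 1) and log2(TPM + 0.1) over all libraries its log2 fold change was -0.19 (adjusted p = 0.90) and -0.073 (0.97). The median gene was at 1.28 and 1.69 on these scales, and at 0.45 with library size alone. Without Control replicate 2, 4 further integrins were higher and 2 lower, beside 8.25% and 5.72% of all genes. Itgb5 (log2 fold change 0.90), Itga3 (0.87) and Itga9 (0.77) had the largest rises, Itga5, the fibronectin receptor chain, was higher by 0.70, and Itgb8 was lower (-0.91). In Control replicate 2 itself Itga5 was at 122 CPM and Itgb5 at 41.9 CPM, above the deficient libraries, at 50.8 to 64.6 CPM and 29.0 to 40.8 CPM.

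No activation, ligand or other adhesion gene passed the test with edgeR over all 6 libraries. At an unadjusted p below 0.05 there were 5 of 36 activation and adaptor genes, 2 of 21 ligands and 7 of 19 other adhesion genes, beside 11.9% of all genes. DESeq2 called 2 higher and 0 lower, 1 higher and 0 lower, and 3 higher and 2 lower in those lists, beside 3.24% higher and 3.2% lower of genes with an adjusted p. Without Control replicate 2, 7 of 37 activation genes were higher, led by Actn1 (0.69), Fermt2 (0.67) and Ptk2 (0.63), which encode an actin cross-linker, kindlin-2 and focal adhesion kinase, and 4 were lower, led by Apbb1ip (-0.60), beside 8.25% higher and 5.72% lower of all genes. For the ligands, 8 of 21 were higher and none lower, beside the same shares, led by Vcam1 (1.27), Tnc (0.97) and Col4a2 (0.81). Fermt2, Vcam1, Tnc and Col4a2 are typical of stromal cells, and 3 of the 6 stromal markers were higher in the same comparison. The 5 endothelial markers summed to 126, 53.6 and 100.1 CPM in Controls 1 to 3 and to 229.7, 209 and 204 CPM in the deficient libraries, without overlap, most of it Pecam1 (31.7 to 80.8 and 160.0 to 175 CPM), the 1 of the 5 that was higher without Control replicate 2 (log2 fold change 1.15). The part of both lists in these differences was not tested. Of the other adhesion genes, 3 were higher and 3 lower without Control replicate 2. Cd96 and Cd226, receptors for nectin-like ligands, were both higher by 0.95, and S1pr1, the receptor that draws lymphocytes out of tissue, by 0.82. Ccr9 (-1.59), Klrg1, a receptor for cadherins (-1.01), and Cd69 (-0.32) were lower, with Ccr9 at 1.22 CPM or less throughout.

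The genes whose pattern over libraries lay closest to an integrin were found by the distance between log2 CPM profiles centred on their means, without the libraries that stood apart. Over 7 libraries of the stimulation experiment, Stc2, St5 and Mgll were closest to Itgb7 among 10301 genes, at distances of 0.20, 0.23 and 0.24. Stc2, which encodes the secreted protein stanniocalcin 2, had a log2 fold change of -1.61 over all libraries. Mgll, which encodes monoglyceride lipase, had -1.59 without IL-33 replicate 3 but -0.44 (adjusted p = 0.62) with it. Over 5 libraries of the Blimp-1 experiment, Socs1, Cebpb and Spred3 were closest to Itga2 among 10012 genes, at distances of 0.09, 0.09 and 0.10. Socs1, a suppressor of cytokine signalling, was higher by 0.58 on the log2 scale (adjusted p = 0.032) without Control replicate 2 and gave 0.44 (adjusted p = 0.39) with it. All of these genes were picked for their likeness, so their values are a description.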

How the data were processed

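Bulk RNA-seq of 14 libraries was analysed. The authors made cDNA from total RNA with a SMART-seq kit, sequenced read pairs of 75 bases, removed adaptors (cutadapt), used HISAT2 to place reads on GRCm38 and Subread to count them for each gene. The authors deposited raw counts per gene (whole numbers, not normalized) and TPM with gene lengths, 1 table of each per experiment. The submitters' processing notes also list Bowtie2 and DESeq2. The deposited TPM equal the counts divided by the deposited length and scaled per library. The strand used in counting, and whether replicates shared a day, are not given in the sources used here.

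Counts were tested with edgeR 4.0.16 in R 4.3.3 (TMM, filterByExpr, quasi-likelihood test, two-sided, no replicate term), with Benjamini-Hochberg adjustment over all genes tested. DESeq2 1.42.0 and limma 3.58.1 on log2(TPM + 1) and log2(TPM + 0.1), kept where the mean TPM reached 1, were alternatives, beside RLE factors, library size alone, no filter, a mean count of at least 50, robust dispersions, a replicate block and leaving out each library. The scripts were tested on simulated data. TMM-scaled CPM compare libraries within an experiment, and TPM compare genes. Figures were made with matplotlib 3.10.9.

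The 10 genes and all lists (17 other integrins, 37 activation genes, 24 ligands, 20 other adhesion genes and the cell type markers) were chosen with earlier results of these data known. Genes of a list were named from those past the threshold, the 3 largest rises and falls first. The markers of ILC2s, T cells, mast cells and basophils, platelets, epithelium and stroma are given in the report. The other lists summed to no more than 23.3 CPM for B cells, 10.3 for NK cells and ILC1, 50.2 for dendritic cells, 5.42 for neutrophils, 221 for macrophages and monocytes and 229.7 for endothelium in any library. Exon overlaps and shared stretches of 75 bases come from GENCODE M21 on GRCm38. The series' ATAC-seq was not analysed here.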

Additional observations from a re-analysis of the deposited data

Results flagged for a closer look

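In groups of 4 libraries, a gap between the extreme library and the next one was large for its group (Dixon's ratio above its 95% critical value) in 4 of 32 groups of integrin values tested, and chance alone gives about 1 in 20. None was among the 10 integrins of the report. Itgb8 in IL-33 replicate 3 stood at 26.6 CPM, with the other IL-33 libraries at 3.22 to 3.47 CPM. Itga3 in unstimulated replicate 3 stood at 37.4 CPM, with 29.7 to 30.6 CPM in the others. Itga8 in unstimulated replicate 3 was at 2.00 CPM, with 1.53 to 1.61 CPM in the others. Itga8 in IL-33 replicate 3 was at 0 CPM, where the other IL-33 libraries held 3 counts each, so that this gap lies within counting error.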

How the results depend on the processing

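Over the settings tried, the 10 genes gave 168 alternative values after IL-33, of which 132 kept their direction and their side of the threshold, and 148 with Blimp-1 loss, of which 123 did. Itgb7 and Itgb2 after IL-33 fell under all 17 alternatives, and Itgb1 without Control replicate 2 was higher under all 8. After IL-33, 1 gene was higher with edgeR, 2 with DESeq2 or a mean count of at least 50, and 0 with limma on log2(TPM + 1) or log2(TPM + 0.1), library size alone or no filter. Of all genes, 16.2% were higher with edgeR and 19.5% with DESeq2. Limma called 990 of 15171 genes higher on log2(TPM + 1) and 975 on log2(TPM + 0.1). Leaving out each library gave 0 to 2 higher and 2 to 5 lower. The 5 lower came without IL-33 replicate 3, where 4328 of 15733 genes were higher and 4666 lower. Over all libraries 2508 of 15466 genes were higher and 2484 lower. Without IL-33 replicate 3, 2 were higher with edgeR and limma on log2(TPM + 1) gave 0, beside 2162 of 14237 genes higher with limma. With Blimp-1 loss, DESeq2 gave 1 higher and 1 lower, beside 3.24% and 3.2% of genes with an adjusted p. Leaving out each library gave 0 to 1 in each direction. Those calls came without Control replicate 2, beside 8.25% higher and 5.72% lower of all genes. Without Control replicate 2, DESeq2 gave 4 higher and 3 lower, beside 10.6% and 8.96% of genes with an adjusted p. There limma on log2(TPM + 1) gave 0 lower, beside 292 lower of 14389 genes. Also leaving out deficient replicate 1 gave 2 lower, beside 613 lower of 17663 genes. Where a further Control was left out, a lone Control was assumed to vary like the deficient libraries.

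Directions turned as follows. After IL-33, log2(TPM + 1) gave -0.31 for Itga4, -0.0711 for Itgav and -0.21 for Itgb1, log2(TPM + 0.1) gave -0.33, -0.0728 and -0.21, and library size alone gave -0.14 for Itga4 and -0.0458 for Itgb1. Itga4 was also at -0.0034 with no filter and at -0.00082, -0.0455 and -0.0932 without unstimulated replicate 4, IL-33 replicate 1 and IL-33 replicate 2, in a range of -0.0932 to 0.14 over single libraries left out. Without IL-33 replicate 3, log2(TPM + 1) gave -0.18 for Itga4, -0.0838 for Itgav and -0.15 for Itgb1. With Blimp-1 loss, log2(TPM + 1) gave 0.96 for Itga4, 0.70 for Itgae, 1.40 for Itgav, 1.69 for Itgb2 and 1.35 for Itgb3, log2(TPM + 0.1) gave 1.19, 1.40, 1.55, 1.74 and 1.39 for the same genes, and library size alone gave 0.56 for Itga1, 0.0112 for Itga4, 0.57 for Itgae, 0.39 for Itgav and 0.24 for Itgb2. The median gene moved by 1.28, 1.69 and 0.45 on these scales, and by -0.25, -0.29 and -0.10 on the same scales after IL-33. Leaving out single libraries gave ranges of -0.31 to 0.10 for Itgb2, -0.51 to 0.27 for Itga1 and -0.55 to 0.28 for Itgae. In these ranges, Itgb2 was above 0 without Control replicate 1, Control replicate 3 or deficient replicate 1, Itga1 without Control replicate 2, and Itgae without Control replicate 2 or deficient replicate 3. Without Control replicate 2, Itgav was at 0.0403 on log2(TPM + 1), and leaving out a further library gave -0.13 to 0.0842 for Itgav, -0.14 to 0.81 for Itga1 and -0.25 to 1.08 for Itgae. Itgav was above 0 there without Control replicate 1, and Itga1 and Itgae were below 0 without Control replicate 3. The cause of these turns was not tested.

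Over all genes with Blimp-1 loss, DESeq2 called 557 higher and 551 lower against 78 and 53 with edgeR, a mean count of at least 50 gave 149 and 107, leaving out any library but Control replicate 2 gave at most 7 and 2, and Itga6 then kept its direction but not its call. On log2(TPM + 1) after IL-33, 990 were higher and 4555 lower against 2508 and 2484. The series' design text gives the groups separate mice, so the replicate numbers were not taken as pairs. The titles reuse the same mouse numbers in both groups of an experiment. Same-numbered libraries correlated at -0.11 to 0.31 in their deviations after IL-33 and at -0.16 to 0.14 between genotypes. Differently numbered libraries correlated at -0.33 to 0.27 and at -0.21 to 0.17 in the same order. A replicate block gave 1 integrin higher (Itga2) and 2 lower after IL-33, and 0 and 0 with Blimp-1 loss, where it called 0 of all genes. Depth limits Itgae and Itga1 most, at 15 and 38 counts in their lowest IL-33 libraries, and p-values measure the spread between libraries labelled as single mice.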
